A study of Homo sapiens with 35 samples.

Results

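The cytosolic chaperonin TRiC (also called CCT) is assembled from 8 different subunits, encoded by TCP1, CCT2, CCT3, CCT4, CCT5, CCT6A, CCT7 and CCT8, and the transcripts of these 8 genes were followed in RPMI-8226 cells before and after a pulse of carfilzomib. The 8 were chosen by their gene symbols among the entries annotated as protein coding, a rule that uses no measured value, although the complex was picked for description with earlier results of these data known. They are 8 of 19665 protein-coding entries in a table of 84647 entries. RPMI-8226 is an established human multiple myeloma line, a cancer of plasma cells that secrete large amounts of immunoglobulin light chain, and carfilzomib is an irreversible proteasome inhibitor. Whole-cell RNA was sequenced in 35 libraries, 5 at each of 7 time points. Per the study's methods, day 0 was collected before the drug, although its labels carry the same treatment text as the other days; all other libraries came from cells exposed to carfilzomib (750 nM, 1 h) and collected 1, 2, 4, 6, 8 or 10 d afterwards. The medium was replaced every 48 h. The libraries were subcultures of one expanded culture of 1 cell line, so that p-values measure the spread between subcultures. No untreated subculture kept past day 0 is among the samples analysed here, so that the pulse and time in culture cannot be told apart.

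TRiC is a double ring in which each of the 2 stacked rings holds all 8 subunits at fixed places. It uses ATP to close a lid over an unfolded protein and is best known for folding actin and tubulin, together with many WD40-repeat proteins such as CDC20 and the G protein beta subunits. Prefoldin delivers nascent actin and tubulin chains to it, the phosducin-like proteins act as its cochaperones, and the tubulin folding cofactors TBCA to TBCE take over tubulin monomers that leave it.

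All 8 members were well above the detection limit in every library. Estimated counts of a single member ran from 678 (CCT8) to 6005 (CCT3) per library, and all 8 passed a filter on low counts. Levels are given as CPM (a gene's counts per 1000000 protein-coding counts) after TMM scaling, a factor per library that lines up the bulk of the genes. CPM are shares of a library, and in these bulk samples fewer cells expressing a gene cannot be told apart from less RNA per cell. Library totals over all biotypes were 6519392 to 10962890 counts, of which 78.1% to 84.9% were protein coding. The line's identity was checked with 10 plasma cell markers, all of which were above 10 CPM in every library. Their summed level was 6623 to 7534 CPM on day 0, 2931 to 3270 CPM on day 1 and 7491 to 8831 CPM on day 10. JCHAIN was the largest part of this sum, with a median of 4621 CPM over all libraries against 571 CPM for MZB1, the next highest. Of the 10, 6 were lower and 1 higher (POU2AF1, log2 fold change 0.37) on day 1 at Q ≤ 0.05 in the edgeR test below. Their median log2 fold change was -0.54. Among all entries 27.3% were lower and 25.4% higher. The part of the lower sum in the day 1 values below was not tested. Of 10 markers of other cell types, EPCAM alone exceeded 10 CPM in all libraries. MS4A1, PAX5, CD3E and PECAM1 were above 0 in every library, with medians of 9.32, 2.54, 2.55 and 3.30 CPM. CD14 and COL1A1 were at 0 in 7 and 6 libraries, and LYZ, HBB and ALB in 28, 32 and 32. Markers of other types summed to 64.5 to 89.6 CPM on day 0, 84.3 to 95.4 CPM on day 1, 104.5 to 118 CPM on day 4 and 99.7 to 115 CPM on day 10. EPCAM was the largest part of this sum, with a median of 85.5 CPM over all libraries against 9.32 CPM for MS4A1, the next highest. From day 4 on, the sum of every library lay above the day 0 range (lowest 97.4 CPM, on day 8). The part of this in the later comparisons was not tested.

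The upstream sequences of 4 members are shown because these genes span the range of responses: CCT3 rose most on day 1, CCT4 and CCT8 rose least, and TCP1 holds the only heat shock element pair found. Each run is the 250 bases upstream of the annotated start of the canonical transcript, written 5' to 3' on the gene's own strand, from RefSeq windows on GRCh38.p14. Capitals mark the heat shock element pair GAANNTTC and the CCAAT box, which reads ATTGG where it lies on the opposite strand. TCP1 occupies chr6:159789603-159789852 (minus strand), CCT3 chr1:156338293-156338542 (minus), CCT4 chr2:61888657-61888906 (minus) and CCT8 chr21:29073649-29073898 (minus).
TCP1: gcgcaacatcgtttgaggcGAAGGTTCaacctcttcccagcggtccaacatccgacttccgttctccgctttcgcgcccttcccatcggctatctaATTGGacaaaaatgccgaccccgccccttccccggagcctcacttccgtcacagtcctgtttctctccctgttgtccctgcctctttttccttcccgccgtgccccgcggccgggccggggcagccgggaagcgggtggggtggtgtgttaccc
CCT3: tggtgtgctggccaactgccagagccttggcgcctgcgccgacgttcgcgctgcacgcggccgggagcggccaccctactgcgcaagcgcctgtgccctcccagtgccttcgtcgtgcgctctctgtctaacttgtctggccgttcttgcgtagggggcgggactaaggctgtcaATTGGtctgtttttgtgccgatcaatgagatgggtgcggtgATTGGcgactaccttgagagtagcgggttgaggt
CCT4: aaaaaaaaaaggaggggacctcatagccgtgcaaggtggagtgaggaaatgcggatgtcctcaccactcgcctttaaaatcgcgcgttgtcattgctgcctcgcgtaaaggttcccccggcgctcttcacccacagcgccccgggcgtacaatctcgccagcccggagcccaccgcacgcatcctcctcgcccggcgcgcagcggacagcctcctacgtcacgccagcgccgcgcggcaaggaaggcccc
CCT8: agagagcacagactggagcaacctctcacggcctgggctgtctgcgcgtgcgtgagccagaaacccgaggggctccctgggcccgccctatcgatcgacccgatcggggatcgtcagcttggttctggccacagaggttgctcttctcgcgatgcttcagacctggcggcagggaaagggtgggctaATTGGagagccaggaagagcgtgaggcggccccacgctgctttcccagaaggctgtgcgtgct

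Windows at the canonical start were found for 6 of the 8 genes (the 4 above, CCT2 and CCT7), and 6 motifs were searched on both strands. The palindromic heat shock element pairs were GAANNTTC, which TCP1 alone held from base -231 to -224, against 5.85% of 27305 promoters of the same length, and TTCNNGAA, which was in 0 of 6 windows and in 6.72% of all promoters. Either pair was in 1 of 6 windows and in 11.7% of all. The CCAAT box was present upstream of TCP1, CCT2, CCT3 and CCT8, at 2 places in CCT3, which is 4 of 6 windows against 33% of all promoters. GGGCGG, the core of an Sp1 site, was likewise in 4 of 6 (TCP1, CCT2, CCT3 and CCT8) against 42.3%. The antioxidant response core TGANNNNGC was upstream of CCT4 and CCT8, against 35.4% of promoters, and the E-box CACGTG was in 0 of 6 windows against 6.49%. With 6 windows these are descriptions of letters, not of binding sites.

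On day 1 every TRiC subunit transcript was above its day 0 level at Q ≤ 0.05 in edgeR's quasi-likelihood test, with Q the Benjamini-Hochberg adjusted p over 17999 protein-coding entries. The increases ran from a log2 fold change of 0.30 (CCT4 and CCT8) to 1.14 (CCT3), with a median of 0.82, while the median over all entries tested was -0.06. At this threshold 8 of 8 members were higher and 0 lower, beside 25.4% of all entries higher and 27.3% lower. Among the 12301 entries that passed the low-count filter, 36.1% were higher. CCT3 was the only member with a log2 fold change above 1, a size reached by 7.27% of entries. The members' share of all protein-coding counts went from 0.194% ± 0.00789 (SD, n = 5) on day 0 to 0.363% ± 0.0113 (SD, n = 5) on day 1.

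CCT3 encodes the gamma subunit. Its day 0 libraries held 344, 373, 381, 416 and 421 CPM, and its day 1 libraries 746, 819, 889.7, 902 and 917 CPM. The 2 groups were far apart, with the lowest day 1 library well above the highest on day 0, and the log2 fold change was 1.14 (SE 0.07, Q = 6.12e-17). CCT7, the eta subunit, had the tightest day 1 group of the 8, at 557, 562, 564, 567 and 576 CPM, against 273, 290.1, 299, 314 and 321 CPM on day 0. Its log2 fold change was 0.92 (SE 0.05, Q = 2.44e-19). CCT5, the epsilon subunit, moved from 139.9, 144, 147, 148 and 153 CPM to 254, 269, 275, 279 and 286 CPM, again with no overlap (log2 fold change 0.90, SE 0.05, Q = 5.37e-19).

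TCP1, the alpha subunit and the gene that gave the complex its name, stood at 287, 295, 297, 306 and 332 CPM on day 0 and at 501, 541, 543, 544 and 555 CPM on day 1. One day 1 library lay below the other 4 but still above every day 0 library, and the log2 fold change was 0.82 (SE 0.05, Q = 1.88e-18). CCT6A, the zeta subunit, went from 208, 216, 219, 232 and 242 CPM to 374, 385, 386, 396 and 415 CPM (log2 fold change 0.81, SE 0.05, Q = 7.08e-18). CCT2, the beta subunit, went from 204, 206, 232, 234 and 236 CPM to 324, 353, 353, 364 and 367 CPM (log2 fold change 0.66, SE 0.05, Q = 3.94e-15). All 5 day 1 libraries of both genes exceeded all 5 day 0 libraries.

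The smallest changes were in the delta and theta subunits. CCT4 held 273, 290.0, 291, 293 and 300.3 CPM on day 0 and 329, 341, 367, 371 and 373 CPM on day 1, a modest shift without overlap (log2 fold change 0.30, SE 0.05, Q = 3.16e-06). CCT8 was the only member whose groups overlapped on day 1: its day 0 libraries were spread over 121, 163, 167, 185 and 204 CPM, while its day 1 libraries were close together at 197, 201, 213, 214 and 214 CPM. The log2 fold change was 0.30 (SE 0.10, Q = 0.00934). Without the lowest day 0 library (replicate 3) it was 0.21 and no longer passed the test (Q = 0.0635).

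**Figure D1:**
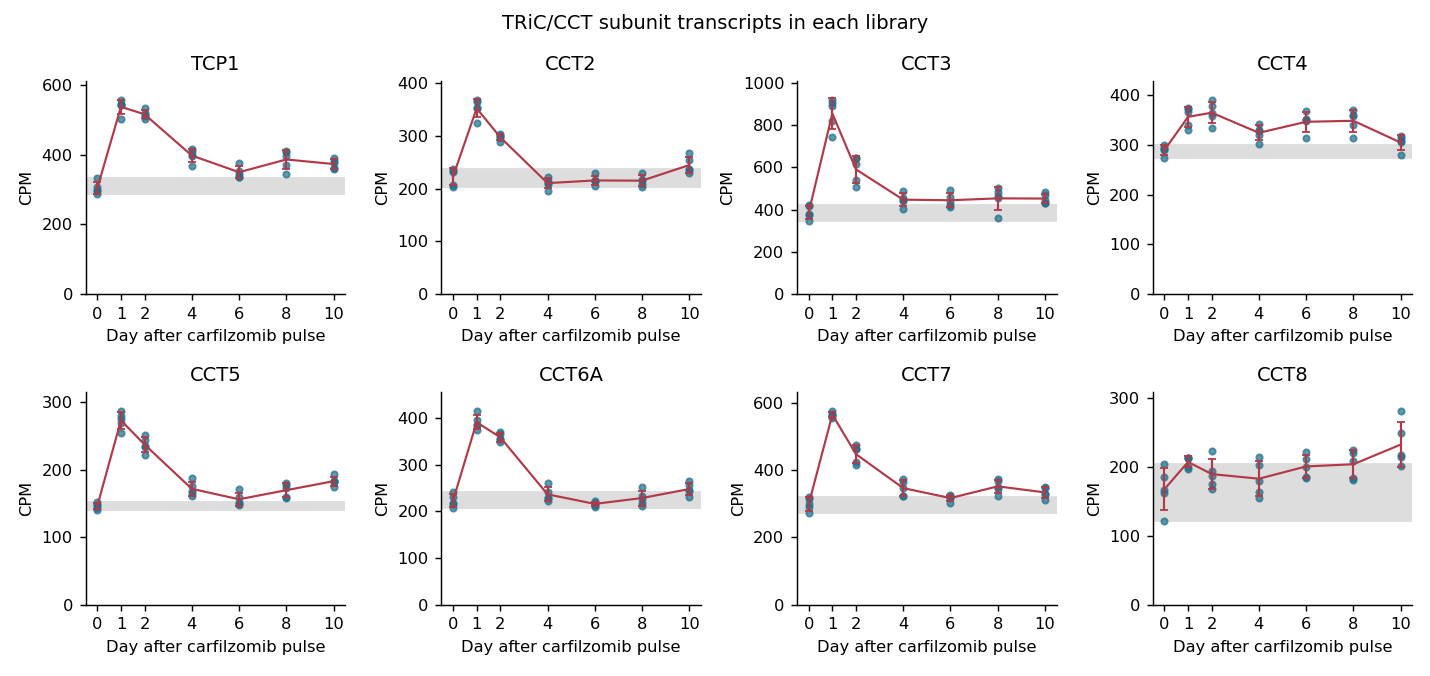
Level of each subunit transcript (CPM, linear axis from 0) in each of the 35 libraries (points) by day after the carfilzomib pulse, with the daily mean ± SD (red, n = 5 libraries) and the range of the day 0 libraries (grey band). For 7 subunits all day 1 points lie above the grey band, and for CCT8 3 of 5 do.

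By day 2 the subunits had begun to separate in time. Still above day 0 were 7 of 8 members (23.2% of all entries were higher and 24.4% lower), and CCT8 did not pass the test (log2 fold change 0.18, SE 0.10, Q = 0.148). CCT8 was called higher without scaling factors (Q = 0.00783) and without Day 0 replicate 2 (Q = 0.0464). Between days 1 and 2, 5 members fell (CCT2, CCT3, CCT5, CCT6A and CCT7) and 0 rose, where 19.4% of entries were lower and 20.2% higher. CCT3 had the largest step, from 746 to 917 CPM on day 1 to 507, 539.7, 618, 643 and 644 CPM on day 2 (log2 fold change -0.53, SE 0.07, Q = 7.17e-08). TCP1 differed little between the 2 days, at 501, 509, 514, 520.4 and 533 CPM on day 2 (log2 fold change -0.06, SE 0.05, Q = 0.362), so that on day 2 it showed the highest log2 fold change of the 8 against day 0 (0.77, SE 0.05, Q = 2.68e-17). CCT4 likewise was not lower on day 2 than on day 1 (log2 fold change 0.03, SE 0.05, Q = 0.663).

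Between days 2 and 4, 7 members fell and 0 rose, beside 16.7% of entries lower and 13.9% higher. The log2 fold changes of the 7 ran from -0.60 (CCT6A, SE 0.05, Q = 6.03e-13) to -0.17 (CCT4, SE 0.05, Q = 0.00805). CCT8 had a value of -0.05 (SE 0.10, Q = 0.782). For CCT3 the step from day 2 to day 4 (-0.40, SE 0.07) was smaller in size than its step from day 1 to day 2 (-0.53), with the difference between steps not tested. After day 4 few steps passed the test. From day 4 to day 6 only TCP1 fell (log2 fold change -0.19, SE 0.05, Q = 0.00647), with 5.98% of entries lower and 6.09% higher, while DESeq2 called 4 members lower. From day 6 to day 8 edgeR called 0 members (1.53% of entries were lower and 1.03% higher), with 3 higher at an unadjusted p under 0.05, and DESeq2 called 2 higher. From day 8 to day 10 CCT2 rose (log2 fold change 0.19, SE 0.05, Q = 0.0102) and CCT4 fell (-0.19, SE 0.05, Q = 0.00881), beside 5.08% of entries higher and 4.97% lower.

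Against day 0, 5 members were higher on day 4 (TCP1, CCT3, CCT4, CCT5 and CCT7; 19% of entries higher, 20.1% lower), 4 on day 6 (TCP1, CCT3, CCT4 and CCT8; 17.5% higher, 17% lower), 6 on day 8 (all but CCT2 and CCT6A; 18.2% higher, 18.6% lower) and 7 on day 10 (all but CCT4; 16.1% higher, 15.8% lower). Members below day 0 numbered 0 on each of these days in edgeR and in DESeq2, and 0 at an unadjusted p under 0.05. The sizes were small by then, with medians over the 8 of 0.19, 0.15, 0.23 and 0.19 on the log2 scale, and the sum of the 8 stood at 0.236% ± 0.00594 (SD, n = 5) of coding counts on day 10. TCP1 was higher on all 6 days compared with day 0, and its day 10 libraries, at 357, 362, 375, 381 and 389 CPM, all exceeded its day 0 libraries (log2 fold change 0.30, SE 0.05). CCT3 was also higher on all 6 days, and its day 10 libraries, from 430.0 to 483 CPM, cleared the day 0 libraries (log2 fold change 0.23, SE 0.07, Q = 0.0171). Its calls on days 4, 6 and 10 depended on single libraries. All 3 were lost without Day 0 replicate 1 (Q = 0.0584, 0.121 and 0.0534). The day 4 call was also lost without Day 4 replicate 1 (Q = 0.0804), the day 10 call without Day 10 replicate 2 (Q = 0.0521), and the day 6 call without Day 0 replicate 2 or 5 or Day 6 replicate 3 or 4 (Q = 0.0561 to 0.121). CCT2's call on day 10 was lost without Day 0 replicate 1 or 3 or Day 10 replicate 3 or 4 (Q = 0.0787 to 0.131), with only the 2 days compared (Q = 0.0528) and with all biotypes summed (Q = 0.406). CCT6A's was lost without Day 10 replicate 2 (Q = 0.0588) and with all biotypes summed (Q = 0.194), and CCT7's without Day 0 replicate 3 (Q = 0.0626). CCT8's call was lost on day 6 without Day 0 replicate 1, 3 or 4 or Day 6 replicate 1, 2 or 4 (Q = 0.0581 to 0.201), and on day 8 without Day 0 replicate 3 or Day 8 replicate 3 or 4 (Q = 0.0515 to 0.128). CCT5's call on day 8 was lost with all biotypes summed (Q = 0.0912).

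CCT5 ended at 174 to 193 CPM on day 10, above every day 0 library (log2 fold change 0.32, SE 0.05). The coding entry of CCT8 was highest on its last day, at 201, 214, 217, 250.3 and 282 CPM, 4 of the 5 above all day 0 libraries (log2 fold change 0.47, SE 0.10, Q = 0.000202). CCT4 kept daily means between 324 and 365 CPM from day 1 through day 8, and on day 10 its libraries, from 279 to 318 CPM, overlapped those of day 0 (log2 fold change 0.07, SE 0.05, Q = 0.304). Without scaling factors CCT4 was called higher on day 10 (log2 fold change 0.14, Q = 0.0124). CCT2 and CCT6A came back closest to day 0, with log2 fold changes of -0.08 and 0.09 on day 4 and of -0.05 and -0.05 on day 6. Over the 7 days together each of the 8 members varied (edgeR quasi-likelihood F test of the 6 day terms, 64.7% of entries called), with Q from 1.28e-21 for CCT6A to 0.0025 for CCT8.

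**Figure D2:**
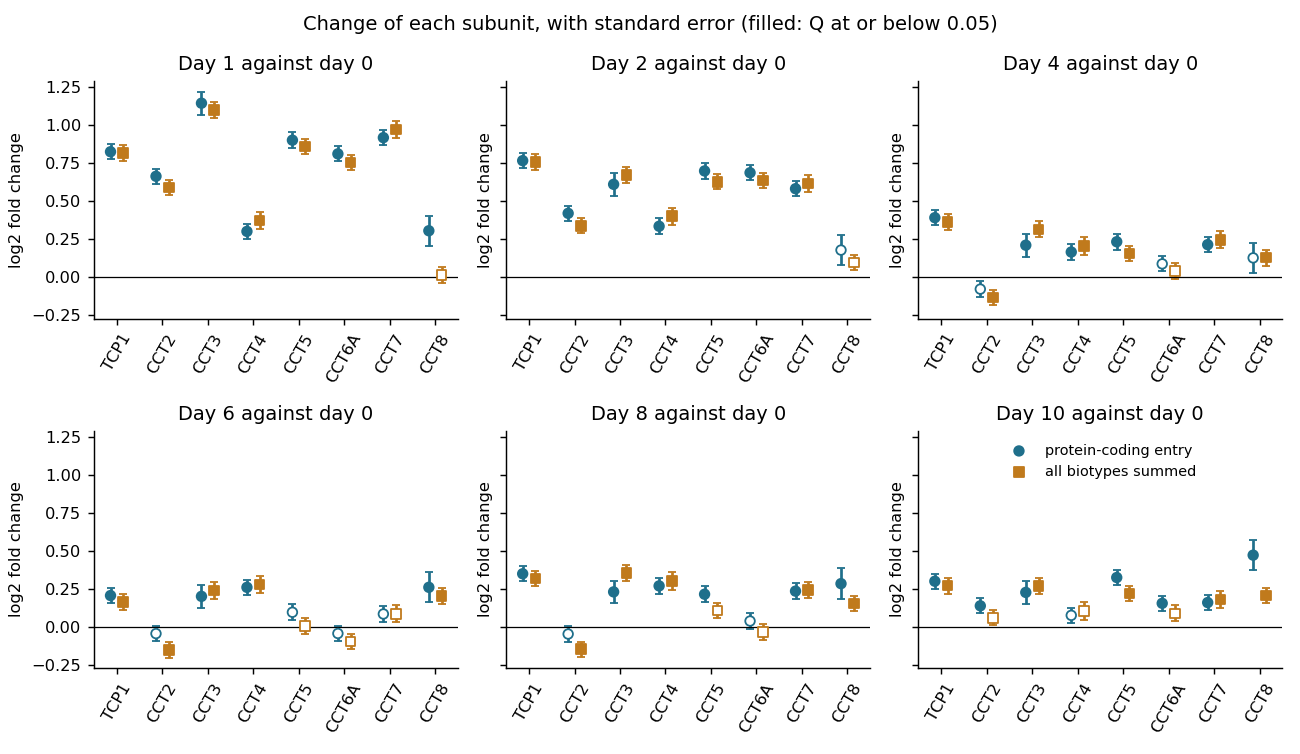
Log2 fold change of each subunit against day 0 on each later day, with its standard error, for the protein-coding entry (circles) and for all entries of the symbol summed over biotypes (squares); filled symbols have Q ≤ 0.05 (edgeR, 5 libraries a day). On day 1 all circles are filled, and the open square is CCT8, at 0.01.

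Since TRiC holds 1 copy of each subunit in each ring, levels were also set per length. Counts were divided by the length of the canonical transcript in GENCODE 44, from 1847 bases (CCT7) to 3293 bases (CCT5), which approximates the mixture of isoforms behind each entry. The authors had already adjusted the deposited counts for transcript length, in a way they do not specify. The order and the ratios below depend on how that was done, and they are not counts of molecules. On day 0 CCT3 had the highest level per length, at 195.8 CPM per kb ± 16.2 (SD, n = 5), followed by CCT7 at 162 ± 10.5, TCP1 at 129 ± 7.41, CCT4 at 122 ± 4.17, CCT2 at 116 ± 8.41, CCT8 at 90.7 ± 16.6, CCT6A at 86.4 ± 5.2 and CCT5 at 44.4 ± 1.44 CPM per kb. Neighbours in this order overlapped in their library ranges except at 2 steps, between CCT7 and TCP1 and between CCT6A and CCT5. CCT3, CCT7 and TCP1 held the top of this order and CCT5 its last place on all 7 days. The ratio of the highest to the lowest mean level per length was 4.41 on day 0, 5.22 on day 1 and 4.12 on day 10.

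The balance among subunits was followed in each library as a member's log2 CPM minus the mean log2 CPM of the other 7. Here day 1 stood apart from day 0: CCT3 was higher relative to the others in 5 of 5 libraries than in any day 0 library, with the mean going from 0.76 to 1.23 on the log2 scale, and CCT4 was lower in 5 of 5, going from 0.29 to -0.21. CCT5 and CCT7 were also above all day 0 libraries in 5 of 5 day 1 libraries (mean changes of 0.19 and 0.21), and CCT8 was below them in 4 of 5 (mean change -0.47). Against the median of the other 7 in place of their mean, the changes of CCT5 and CCT8 were 0.46 and -0.12. On day 4 CCT3 and CCT4 lay within the day 0 range in all 5 libraries, but CCT4 was above it in 4 of 5 on day 6 (change 0.15) and below it in 5 of 5 on day 10 (change -0.18). TCP1 was above the day 0 range in 5 of 5 libraries on days 2, 4 and 8, and CCT2 was below it in 5 of 5 on days 2, 4, 6 and 8, with a change of -0.28 on days 4 and 8. CCT6A was above the day 0 range in 5 of 5 on day 2 and below it in 5 of 5 on days 6 and 8. These relative values are a description and carry no test.

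**Figure D3:**
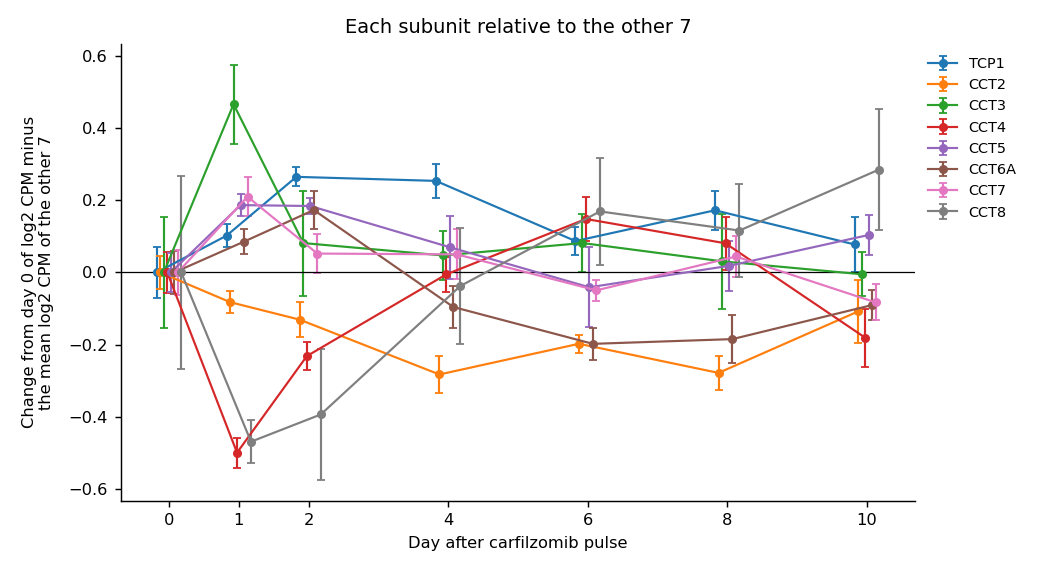
Change from day 0 in the balance of each subunit (its log2 CPM minus the mean log2 CPM of the other 7, averaged over 5 libraries) by day, with the SD between libraries of that day; points are shifted slightly sideways for legibility. On day 1 CCT3 is at 0.47 while CCT4 and CCT8 are at -0.50 and -0.47.

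The table also holds non-coding entries for the same 8 symbols, which the choice of members did not use. These were tested in a fit over 26617 entries of all biotypes with its own TMM scaling, in which the median coding entry sat 0.19 higher on the log2 scale on day 1 than in the coding fit, so their values compare only with each other. In this fit the coding entries of the 8 members had log2 fold changes of 0.49 to 1.33 on day 1. Retained-intron entries, which collect reads assigned to annotated transcripts that keep an intron, were present for 7 of the members (all but CCT4). On day 1, 4 of the 7 fell (TCP1, CCT2, CCT6A and CCT8) while the coding entries of the same genes rose, and 2 rose (CCT3 and CCT5). Over all 14 non-coding entries tested, 5 fell and 4 rose on day 1, beside 27.3% and 26.3% of the entries in this fit. The fifth that fell was the processed transcript of TCP1 (log2 fold change -1.07, SE 0.27, Q = 0.00106). The others that rose were the processed transcript of CCT4 (0.50, SE 0.21, Q = 0.0405) and the nonsense-mediated-decay entry of CCT2. The latter was at 0 in all day 0 libraries and above 0 in only 3 of 5 on day 1. With the scaling of the coding entries 2 rose, so not all 4 rises hold under it.

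For CCT2, the retained-intron entry went from 17.5, 29.7, 30.5, 31.8 and 33.6 CPM on day 0 to 11.7, 11.8, 12.4, 14.8 and 17.4 CPM on day 1, as CPM over all biotypes, and the groups did not overlap (log2 fold change -1.07, SE 0.18, Q = 4.24e-06, edgeR). CCT8's fell from a narrow range of 10.1 to 11.6 CPM to 4.11 to 7.13 CPM (log2 fold change -0.98, SE 0.21, Q = 0.000154). CCT6A's fell from 14.3 to 25.1 CPM to 7.26 to 13.1 CPM (-0.87, SE 0.20, Q = 0.000362), and TCP1's from 8.40 to 13.0 CPM to 5.14 to 9.38 CPM (-0.72, SE 0.23, Q = 0.00731). In the other direction, CCT3's retained-intron entry rose from 5.40 to 13.95 CPM to 11.2 to 20.7 CPM (0.82, SE 0.30, Q = 0.0192), and CCT5's from 20.8 to 25.7 CPM to 24.0 to 34.5 CPM (0.38, SE 0.10, Q = 0.00278). CCT7's was at 4.23 to 10.1 CPM on day 0 and 1.64 to 13.6 CPM on day 1, with no call (Q = 0.491).

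As a share of its own symbol's counts, the retained-intron entry was smaller on day 1 than in any day 0 library in 5 of 5 libraries for TCP1, CCT2, CCT5, CCT6A and CCT8. For CCT2 it went from 14.5% ± 3.63 (SD, n = 5) to 4.23% ± 0.978, for CCT5 from 16.8% ± 1.76 to 11.1% ± 1.68 and for CCT6A from 10.2% ± 2.57 to 3.02% ± 0.661. For CCT5 the level of the retained-intron entry rose in the all-biotype scaling, as given above, while its share fell. Whether this rise was among those kept with the scaling of the coding entries is not given here. Over the transcriptome 33.9% of 4736 retained-intron entries were lower on day 1 and 8.68% higher, with a median log2 fold change of -0.44, and all such entries together took 7.15% ± 0.574 of all counts on day 0 and 5.05% ± 0.462 on day 1. The members were not tested against that background. On day 10, 5 non-coding entries were lower than on day 0 and 0 higher in edgeR (13.1% and 16.7% of all entries in the fit; 1 higher at an unadjusted p under 0.05), among them the retained-intron entries of CCT6A (log2 fold change -1.22, SE 0.20, Q = 1.24e-05), CCT2 (-0.88, SE 0.17, Q = 0.000172), TCP1 (-0.80, SE 0.23, Q = 0.00662) and CCT5 (-0.53, SE 0.11, Q = 0.000219). Of the 4736 retained-intron entries, 17.4% were lower and 7.83% higher on day 10, with a median log2 fold change of -0.17. The members were not tested against this background either.

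**Figure D4:**
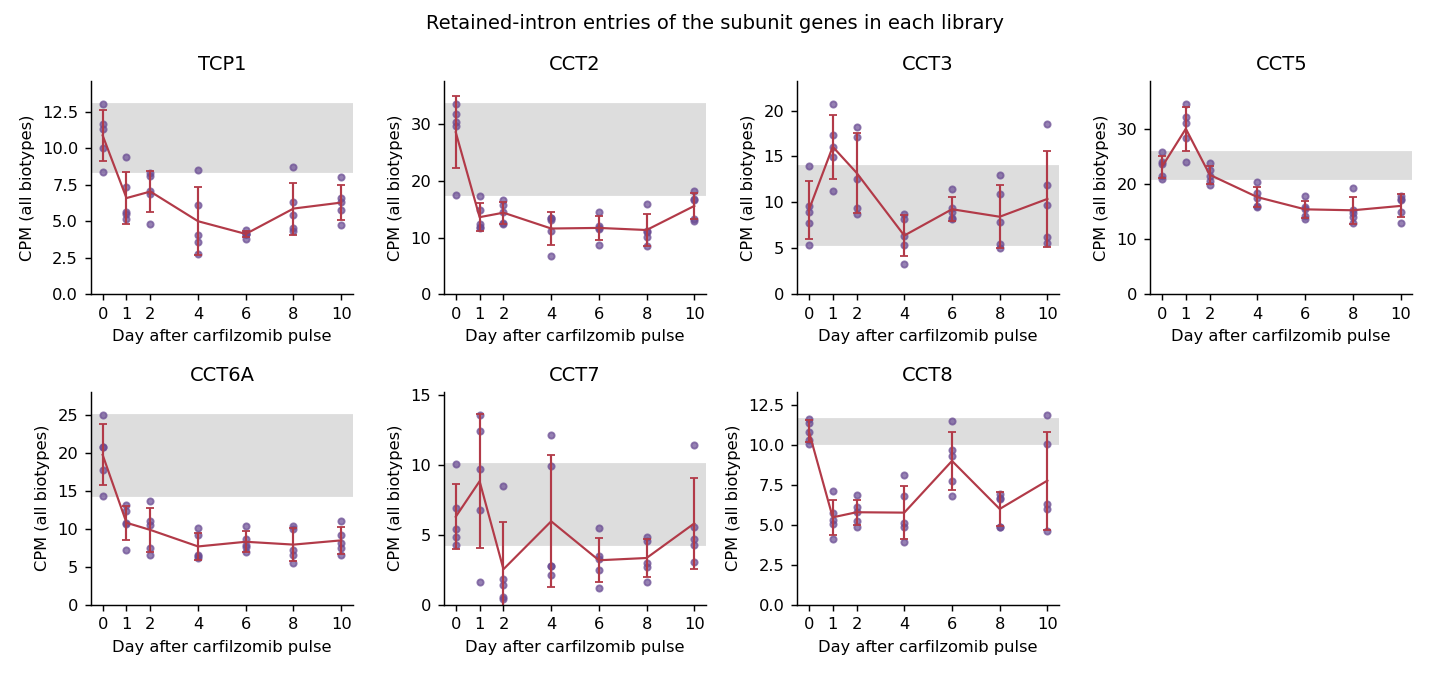
Level of the retained-intron entry of 7 subunit genes (CPM over all biotypes, linear axis from 0) in each library (points) by day, with the daily mean ± SD (red, n = 5) and the range of the day 0 libraries (grey band). For CCT2, CCT6A and CCT8 all 5 day 1 points lie below the grey band, and for CCT3 and CCT5 4 of 5 lie above it.

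CCT8 needs its non-coding entry beside it, because an entry of the processed-transcript biotype held about as many estimated counts as the coding one, 5656 against 4926 over the 5 day 0 libraries. On day 0 the sum of the 2 entries varied less than either: the coding entry's coefficient of variation on day 0 was 20.2% and that of the processed transcript 13.9%, whereas their sum varied by 8.32%. This was not so on every day: on day 8 the sum varied by 11.3% and the coding entry by 10.9%, and on day 10 the sum by 8.74% and the processed transcript by 8.17%. In the day 0 library with the lowest coding value the counts were 678 coding and 1187 processed, and in the one with the highest they were 1285 and 964. The coding entry's share of CCT8 counts moved from 44.5% ± 7.53 (SD, n = 5) before the pulse to 57.3% ± 1.46 on day 1, above all day 0 libraries in 5 of 5. It was 47.1% ± 4.27 on day 6 and 54.5% ± 5.62 on day 10. The sum of the 2 entries had means of 330 and 337 CPM over all biotypes on those days, so the day 10 peak of the coding entry was not matched in the sum. With all biotypes summed per symbol, CCT8 had a log2 fold change of 0.01 on day 1 (SE 0.05, Q = 0.891) and of 0.20 on day 10 (Q = 0.00122). Its day 1 call was therefore not made on the summed counts. The other 7 members were called higher on day 1 in them too, with log2 fold changes of 0.37 (CCT4) to 1.098 (CCT3). In the summed fit 10314 symbols were called in either direction on day 1, against 9480 entries in the coding fit, of 17999 tested in each. In the summed counts CCT2 fell below day 0 on days 4, 6 and 8 (log2 fold changes of -0.14, -0.15 and -0.15), which its coding entry did not do at Q ≤ 0.05.

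CCT3 also had a large entry annotated for nonsense-mediated decay, which held 2079 counts over the day 0 libraries and 19 to 1568 counts in single libraries, and the standard error of CCT3's day 1 change was 0.07 for the coding entry and 0.05 after summing. The nonsense-mediated-decay entry of CCT2 was at 0 in 25 of 35 libraries, and its counts, at most 63 in a library, are given without a fold change. Reads of near-identical copies can be divided unevenly by the estimation: the entries of the CCT6A copies CCT6P1 and CCT6P3 held 9 to 476 counts each over the 5 day 0 libraries, against 6479 for the coding entry of CCT6A, and processed pseudogenes of CCT4, CCT5 and CCT8 had at most 4 counts in any library. On day 1 the processed-transcript and retained-intron entries of CCT6P3 were lower (log2 fold changes -0.76 and -1.09, Q = 0.00103 and 0.000148, edgeR over all biotypes). The tested entries of CCT6P1 were not called (Q = 0.198 and 0.0653). Whether reads moved between CCT6A and its copies was not tested.

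CCT6B, the testis-enriched paralogue of CCT6A, moved the other way. Its coding entry went from 9.62 to 13.0 CPM on day 0 to 1.72 to 3.93 CPM on day 1, with 327 and 81 counts in all, and the log2 fold change was -2.07 (SE 0.22, Q = 5.14e-11); on day 10 it was 0.14 (SE 0.18, Q = 0.613). The other chaperonin-like relatives, the Bardet-Biedl proteins BBS12, MKKS and BBS10, rose on day 1 with log2 fold changes of 2.08, 0.99 and 0.42, and BBS12 was still higher on day 10 (1.25, SE 0.30), where MKKS had the lowest value of the 4 (-0.17, Q = 0.347). The mitochondrial group I chaperonin HSPD1 and its lid HSPE1 both rose on day 1, by log2 fold changes of 0.23 (SE 0.05) and 1.03 (SE 0.07), and HSPE1 alone passed on day 10 (0.18 against 0.09 for HSPD1).

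The counts of related genes are read against the share of all entries called. On day 1 this was 25.4% for increases and 27.3% for decreases, or 36.1% and 34.8% of the entries past the low-count filter. For day 10 the shares were 16.1% and 15.8%, or 23.1% and 21.6% past the filter. Among the partners that feed TRiC, all 6 prefoldin subunits rose on day 1, with a median log2 fold change of 0.74, from PFDN5 (0.27, SE 0.08) to VBP1 (1.45, SE 0.09), which went from 40.6 to 57.5 CPM to 117 to 137 CPM. On day 10, 0 of the 6 passed the test in edgeR (2 were higher at an unadjusted p under 0.05), with values from -0.14 (PFDN4) to 0.20 (PFDN1). Of 6 cochaperones and prefoldin-like proteins tested, 3 rose on day 1 (TXNDC9, PDCL and PDCL3) and URI1 fell (with unscaled library sizes 0 fell), with values between -0.28 (URI1) and 0.88 (TXNDC9). On day 10 PDCL3 (-0.79, SE 0.13, Q = 2.58e-06) and TXNDC9 (-0.44, SE 0.10, Q = 0.0009) were below day 0, and the highest value was that of UXT (-0.13). The tubulin folding cofactors split in a like way on day 1, with TBCA (0.98), TBCB, TBCD and TBCE up and TBCC down (-0.33, SE 0.09, Q = 0.00169). On day 10, TBCD (0.40) and the small GTPase ARL2 (0.33) were higher, and TBCC had the lowest value (-0.19, Q = 0.105).

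Among the clients, all 11 actin and tubulin genes rose on day 1, with a median log2 fold change of 1.42, from ACTG1 (0.38, SE 0.06) to TUBA1C (2.09, SE 0.09). TUBA1C went from 72.2 to 103 CPM on day 0 to 349.8 to 439 CPM on day 1. The alpha-tubulin genes TUBA1A, TUBA1B and TUBA1C are near-identical in their coding sequence, so the division of reads among them is uncertain. On day 10 the list was divided, with 4 higher, led by TUBB (0.78, SE 0.06), and 3 lower, led by TUBB2A (-2.04, SE 0.25). Of 8 other known clients 5 rose and 1 fell on day 1 (25.4% and 27.3% of all entries). Their values lay between STAT3 (-0.64, SE 0.06) and WRAP53 (0.51, SE 0.12), with a median of 0.27. CDC20, which depends on TRiC to enter the mitotic checkpoint, had a value of 0.14 (Q = 0.232) on day 1 and 0.63 (SE 0.09) on day 10, where the mitotic kinase PLK1 was highest (1.56, SE 0.11) and STAT3 lowest (-0.20, SE 0.06).

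The heat shock factors HSF1 and HSF2, which bind the heat shock element, rose on day 1 by log2 fold changes of 0.16 (SE 0.06, Q = 0.0134) and 0.99 (SE 0.16), and on day 10 neither passed (0.05 and 0.24). Of 15 cytosolic heat shock chaperones 14 rose on day 1, with a median of 1.56, from HSPA1B (0.54) to HSPA1A (3.34, SE 0.16), while DNAJB1, an HSP40 cochaperone, fell (-0.53, SE 0.07, Q = 4.07e-09). HSPA1A and HSPA1B are near-identical copies whose reads cannot be separated with certainty. On day 10, 6 of the 15 were higher and 3 lower, between CHORDC1 (1.31, SE 0.10) and DNAJB1 (-0.63, SE 0.07). All 17 of the 19S and all 14 of the 20S proteasome subunits rose on day 1, with medians of 2.04 and 1.81 and extremes of 0.58 (PSMD7), 3.47 (PSMC4), 1.18 (PSMA1) and 2.42 (PSMB3). On day 10, 6 of the 17 and 1 of the 14 were higher, where 16.1% of all entries and 23.1% of those past the low-count filter were, between -0.15 (PSMD8) and 0.55 (PSMD1) and between -0.07 (PSMA1) and 0.25 (PSMB3). The TRiC median of 0.82 on day 1 lay near those of prefoldin (0.74) and the tubulin cofactors (0.82) and above those of the chaperonin-like relatives (0.70), the group I chaperonin (0.63), the heat shock factors (0.57), the cochaperones (0.30) and the other clients (0.27). It was below those of the heat shock chaperones, the actin and tubulin clients and the proteasome lists. On day 10 it was 0.19, against 0.09, 0.06, -0.07, 0.02 and 0.05 for prefoldin, the heat shock chaperones, actin and tubulin, 19S and 20S. It was 0.24 for the chaperonin-like relatives, 0.13 for the group I chaperonin, 0.14 for the heat shock factors, 0.05 for the tubulin cofactors, 0.02 for the other clients and -0.24 for the cochaperones. Differences between lists were not tested.

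**Figure D5:**
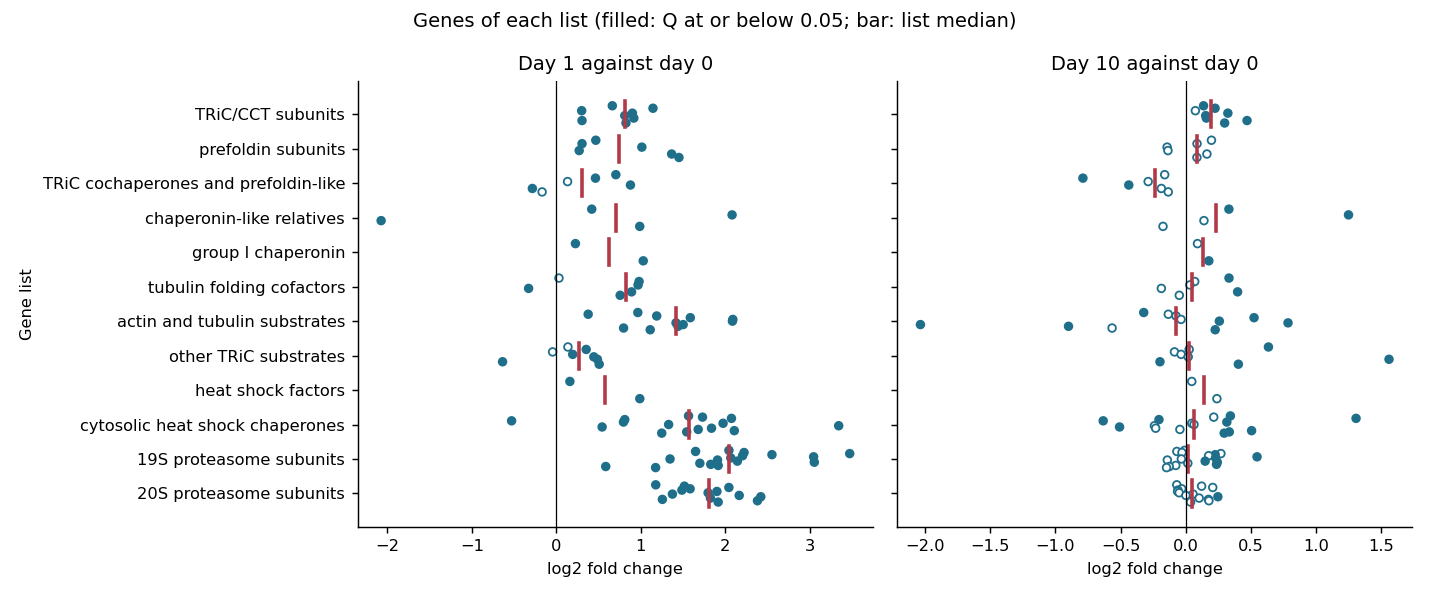
Log2 fold change of each gene of the 12 lists against day 0 on day 1 (left) and day 10 (right); filled points have Q ≤ 0.05 (edgeR, 5 libraries a day), and red bars are list medians. On day 1 the TRiC/CCT median is 0.82 and those of the 19S and 20S lists are 2.04 and 1.81, and on day 10 the TRiC/CCT median is 0.19 and those of the 19S and 20S lists are 0.02 and 0.05.

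The 10 genes outside the complex whose 6 log2 fold changes against day 0 lay nearest to the median profile of the 8 members were SEPT9, MIER1, PPID, CCND3, LUC7L2, ZNHIT1, EFTUD2, PIK3CB, NDUFA11 and ITGB1BP1, with root mean square differences of 0.06 to 0.07 on the log2 scale over 6 comparisons of 35 libraries. PPID, an immunophilin cochaperone of HSP90, followed values of 0.78, 0.61, 0.23, 0.26, 0.18 and 0.17 on days 1, 2, 4, 6, 8 and 10, where the median of the members was 0.82, 0.59, 0.19, 0.15, 0.23 and 0.19. EFTUD2, a GTPase of the spliceosome, had 0.81 and 0.59 on days 1 and 2 and 0.20 on day 10. The median does not describe each member equally well: of 12293 genes outside the complex, 1860 lay nearer to it than CCT8 did, 1168 nearer than CCT4 and 675 nearer than CCT2. Because the 10 genes were picked for likeness, their values carry no test.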

How the data were processed

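Cells of the human line RPMI-8226 were collected at 7 time points with 5 subcultures each, and total RNA was sequenced as stranded 75-bp paired-end libraries. The authors estimated transcript abundance with kallisto (version 0.44.0, with correction for GC bias) against GENCODE 28 (GRCh38.p12) and deposited whole-number estimated counts, adjusted for transcript length, per symbol and biotype. Their notes also name R 3.5.0 and DESeq2 1.25.8. The deposited counts are estimates, so reads shared by isoforms or near-identical genes are divided by a model.

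The 17999 of 19665 protein-coding entries that were above 0 somewhere were tested with edgeR 4.0.16 (R 4.3.3) by quasi-likelihood F tests with TMM factors, day as the only factor over all 35 libraries, and Benjamini-Hochberg adjustment over all entries tested (Q). A call needed Q ≤ 0.05. Standard errors are the log2 fold change divided by the square root of F. Non-coding entries were tested in a second fit over 26617 entries of all biotypes that passed filterByExpr. Log2 CPM in the balance used a prior count of 2. The fit was tested on simulated data with known changes.

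The 8 members and the pathway lists were chosen with earlier results of these data known. Named genes were all 8 members, the highest and the lowest of each list on days 1 and 10, further genes of the lists, and the 10 entries nearest to the members' median profile. Alternatives were DESeq2 1.42.0, RLE factors, library sizes without factors, filterByExpr, the replicate number as a block, only the 2 days compared, each library left out, the fold cutoff and, chosen after the data were seen, all biotypes summed per symbol. Between replicates, chi-square per degree of freedom was 2.52 to 9.64 over 70 pairs of the same day. The counts are estimates divided by a model, so this does not by itself show that replicates were separate libraries. Depth was 6519392 to 10962890 counts per library.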

Additional observations from a re-analysis of the deposited data

Results flagged for a closer look

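Of 56 groups of 5 libraries (8 members on 7 days), 3 held a library set apart from the other 4 by Dixon's test on its level, and chance gives about 1 in 20. TCP1 was at 501 CPM in replicate 1 of day 1, below the other 4 libraries of that day (541 to 555 CPM). CCT3 was at 360.2 CPM in replicate 1 of day 8, against 457 to 500.1 CPM in the others. CCT7 was at 302 CPM in replicate 1 of day 6, against 318 to 325 CPM.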

How the results depend on the processing

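Of 336 values of single members under other settings, 317 kept their direction and their side of the threshold, and of 480 with 1 library left out, 452 did. On day 1, 7 or 8 members were higher and 0 lower with any library left out. The ranges for members higher were 7 to 8 on day 2, 4 to 6 on day 4, 2 to 4 on day 6, 5 to 6 on day 8 and 5 to 7 on day 10, with 0 lower. The day 6 count was 2 without Day 0 replicate 1 or Day 6 replicate 4. Members lower between consecutive time points ranged over 4 to 5 (day 2 against 1), 6 to 7 (day 4 against 2), 1 to 4 (day 6 against 4; 4 without Day 4 replicate 2 or 5, 3 without Day 6 replicate 5, 2 without Day 4 replicate 4) and 1 (day 10 against 8). Members higher ranged over 0 to 2 from day 6 to 8 (2 without Day 8 replicate 1) and 0 to 2 from day 8 to 10 (0 without Day 10 replicate 3, 2 without Day 8 replicate 3). CCT6A on day 8 ranged from -0.0031 (log2, without Day 8 replicate 3) to 0.0825. For non-coding entries on days 1, 2, 4, 6, 8 and 10, higher calls ranged over 2 to 4, 1 to 2, 1 to 2, 0, 0 to 1 and 0, and lower calls over 5 to 6, 3 to 6, 6, 4 to 5, 6 and 4 to 5. Day 0 replicate 1 gave the extremes of 2 on days 1 and 2 and of 1 on day 8, Day 0 or Day 4 replicate 4 that of 2 on day 4, and Day 2 replicate 2 the 3 lower on day 2.

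In the main fit, requiring a log2 fold change above 1 left 1 member higher on day 1 and 0 on each later day. With all biotypes summed, 1 member (CCT2) was lower on each of days 4, 6 and 8, 3 were lower from day 4 to 6, and CCT6A on day 8 was at -0.0345. From day 4 to 6, 4 members were lower in DESeq2, with filterByExpr and without factors, and 3 with RLE factors. From day 6 to 8, 2 were higher in DESeq2 and with filterByExpr. From day 8 to 10, 2 were higher without factors and 0 with only the 2 days compared.

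Leaving out the scaling factors moved the median of the 12301 expressed genes from 0.01 to 0.12 on day 1 and put CCT2 on days 4 and 6 at 0.0324 and 0.0070 and CCT6A on day 6 at 0.0079 (-0.0806, -0.0462 and -0.0454 with factors). It also added edgeR calls of higher against day 0. These were CCT8 on days 2 and 4 (Q = 0.00783 and 0.0499) and CCT6A on day 4 (Q = 0.000355). The others were CCT5 and CCT7 on day 6 (Q = 0.0137 and 0.0127) and CCT4 on day 10 (Q = 0.0124). Without factors 2 prefoldin subunits, 2 group I chaperonin genes and 6 20S subunits were higher on day 10, 0 other substrates were lower on day 10, and 0 cochaperones were lower on day 1. With filterByExpr 1 prefoldin subunit and 3 20S subunits were higher on day 10, and 2 cochaperones were lower on day 1, as with RLE factors. With coding scaling 2 non-coding entries were higher on day 1. Against the median of the other 7, balance changes on day 1 were 0.17 (TCP1), 0.22 (CCT2), 0.46 (CCT5), 0.49 (CCT6A) and -0.12 (CCT8), and on day 10 0.0562 (CCT2), -0.10 (CCT4), 0.24 (CCT5), 0.0716 (CCT6A) and -0.0102 (CCT7). The causes were not tested.

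With the replicate number as a block, 8 members were higher on day 1 and 7 on day 10, the counts without it, and no count of calls moved by over 1.5 times. Correlations between the deviations of same-numbered libraries ran from -0.123 to 0.136 (median 0.0012, 1 of 105 above 0.1). Yet 14 of 35 libraries correlated best with their own number, where 1 in 5 would by chance. Whether the numbers pair the samples is therefore not settled, and the main fit took the libraries as unpaired.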
